A study of Mus musculus with 12 samples.

Results

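ERRα knock-out (ERRα KO) hearts were set against wild-type (WT) hearts across all genes of an Affymetrix Mouse Gene 2.0 ST array, an array that measures RNA by the brightness of short probes. The comparison used the 6 arrays of these groups, 3 ERRα KO and 3 WT, out of 12 in the series. Its members were all 22180 genes that had at least 1 row of the deposited table to themselves (23521 of 41345 rows, called probe sets, were annotated to exactly 1 gene), and a gene with several such rows was represented by the one with the highest mean over the 12 arrays. All mice were FVB males aged 15 weeks, killed at the same time of day. Total RNA was extracted from their hearts, and no separation of cell types is described, so that every cell type of the heart could contribute. ERRα KO mice lacked ERRα, the product of Esrra, throughout the body and not in heart muscle alone, and carried the normal ErbB2 locus. WT mice carried both normal loci. The other 6 arrays came from KI:KO mice, which combined the ERRα knock-out with a knock-in, at the ErbB2 locus, of an ErbB2 cDNA that lowers its expression, and from ErbB2 KI mice, which had the knock-in alone. KI:KO against ErbB2 KI hearts is thus a further comparison of hearts without and with ERRα, with no array shared. Each array is 1 biological replicate per the labels.

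ERRα is an orphan nuclear receptor, a transcription factor without a known natural hormone, that binds DNA at a short element containing AAGGTCA and works with PGC-1 coactivators. In heart and other tissues of high energy use it is known for switching on genes of fatty acid oxidation, the citric acid cycle and the respiratory chain, a task that it shares with its relative ERRγ. The adult heart draws most of its energy from fatty acids, and its working muscle also depends on sets of ion channels, calcium-handling proteins and Z-disc proteins.

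Levels are given as log2 values, so that a difference of 1 is a doubling or a halving of brightness, and levels of different genes are not compared. The array medians over all probe sets lay between 4.58 and 4.65, and pairs of arrays had correlations of 0.975 to 0.988 across probe sets. In each group 1 array stood apart (ERRα KO replicate 2, WT replicate 2, KI:KO replicate 3 and ErbB2 KI replicate 3). The deviations of these 4 arrays from their group means correlated at 0.177 to 0.254 with each other across genes, and counts without them are given below. Esrra (chr19:6910977-6922048, GRCm38) had 6.39, 6.43 and 6.31 in ERRα KO hearts, against 7.74, 7.40 and 7.56 in WT hearts. The groups did not overlap, and Esrra fell by 1.19 on the log2 scale (standard error 0.10, adjusted p = 1e-04, limma). Residual signal remained on the probe set, and which part of Esrra the deletion removes is not given in the sources used here. Erbb2 had 6.60, 6.43 and 6.80 in ERRα KO hearts and 6.56, 6.39 and 6.47 in WT hearts, which overlap (difference 0.14, adjusted p = 0.73, limma).

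The call of a gene required a p under 0.05 in limma after Benjamini-Hochberg adjustment for the 22180 genes, with the 4 groups fitted together. In ERRα KO hearts 253 genes rose (1.14% of those tested) and 268 fell (1.21%), in all 521 genes or 2.35%. Of the genes that rose, 172 changed at least 1.5-fold, 53 at least 2-fold and 9 at least 4-fold. Of those that fell the numbers were 128, 31 and 4. The median change was 0.69 among genes that rose and -0.58 among genes that fell, against -0.003 over all genes. In each of the 521 the 3 ERRα KO arrays lay beyond the 3 WT arrays, an order that 20.1% of all genes showed. Calls were more frequent among bright genes: with genes split by mean level into 4 bins of 5545, 5.50% were called in the highest bin, 3.01% in the next, then 0.703%, and 0.180% in the lowest. In the highest bin 127 genes rose and 178 fell. Shares of gene lists given below are set against all genes, and the lists were not matched for level. The lists were written with earlier results of these data known, so that these shares are descriptions only. Protein-coding genes made up 503 of the 521, and 13 were annotated as long non-coding RNAs.

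**Figure D1:**
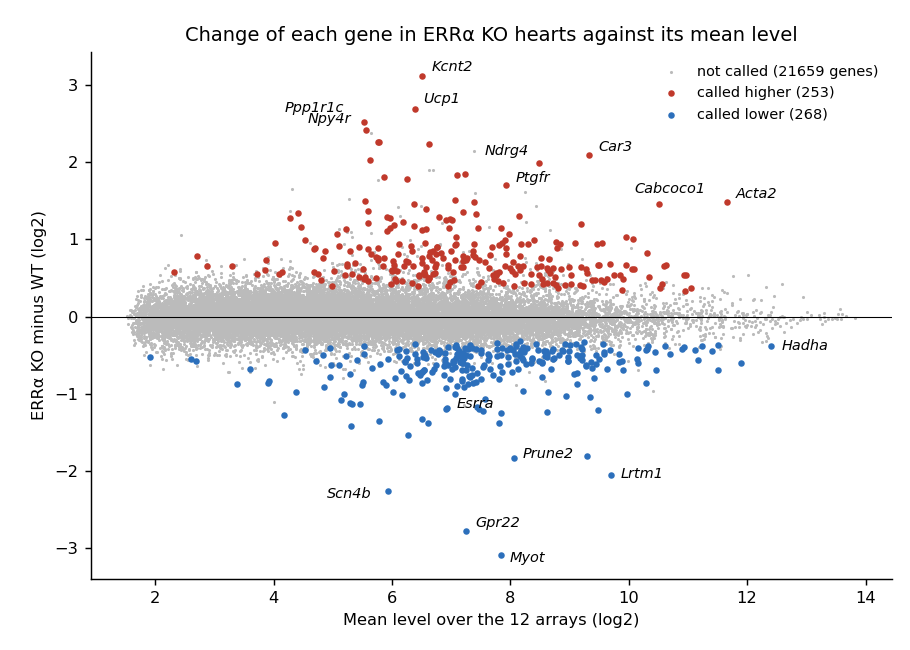
Difference between ERRα KO and WT hearts (log2) for each of 22180 genes against its mean level over the 12 arrays (log2), with genes called higher in red, genes called lower in blue and all others in grey. The 9 rises and 4 falls of at least 4-fold lie between the dimmest and the brightest genes, and the share called falls towards low levels, with 0.180% in the lowest bin.

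The strength of the calls varied. When each of the 6 arrays was left out in turn, 175 genes (0.789% of those tested; 96 that rose and 79 that fell) stayed called every time, and 346 lost their call at least once. Without the 4 arrays that stand apart, 95 of the genes that rose and 89 of those that fell stayed called with 2 arrays a group. The signs of the 521 changes cannot turn in such fits, as the ERRα KO and WT arrays do not overlap in any of these genes. Among the 20 largest rises 17 stayed called without any 1 array, and among the 20 largest falls 19 did.

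The largest falls included genes of the contractile apparatus, of electrical conduction and of receptor signalling. Myot (chr18:44334053-44355740) encodes myotilin, a Z-disc protein that binds actin filaments. It had 6.0, 6.48 and 6.0 in ERRα KO hearts, against 9.34, 9.24 and 9.16 in WT hearts. The lowest WT array was far above the highest ERRα KO array, and Myot fell by 3.08 (standard error 0.20, adjusted p = 8.4e-06, limma). In RNA of whole tissue, fewer cells of a type and less RNA per cell cannot be told apart. Gpr22 (chr12:31706867-31713883), an orphan G protein-coupled receptor known from heart and brain, had 5.82, 5.84 and 6.20 in ERRα KO hearts, against 8.95, 8.45 and 8.80 in WT hearts. It fell by 2.78 with no overlap (adjusted p = 1.8e-06, limma). Scn4b (chr9:45138624-45154155), the beta4 subunit that modulates voltage-gated sodium channels, had 4.87, 4.63 and 4.48 in ERRα KO hearts and 6.97, 7.04 and 6.75 in WT hearts, and fell by 2.26 (adjusted p = 8.4e-06, limma).

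Lrtm1, a leucine-rich repeat transmembrane protein, had 8.75, 8.60 and 8.65 in ERRα KO hearts, against 10.70, 10.64 and 10.80 in WT hearts (a change of -2.05). Prune2 had 7.09, 7.09 and 6.83 in ERRα KO hearts and 8.94, 8.80 and 8.79 in WT hearts (a change of -1.84). Spread within either group was small beside these differences. Lgi1, a secreted leucine-rich repeat protein known from neurons, had 5.34, 5.28 and 5.42 in ERRα KO hearts, against 7.06, 6.96 and 6.62 in WT hearts (a change of -1.54). P2ry1, a receptor for ADP, had 7.31, 7.18 and 6.97 in ERRα KO hearts and 8.38, 8.40 and 8.45 in WT hearts (a change of -1.25). Il15, a cytokine just outside the 20 largest falls, had 6.98, 6.98 and 6.83 in ERRα KO hearts, against 8.02, 8.11 and 8.19 in WT hearts (a change of -1.17). None of these groups overlapped, and all 5 genes stayed called without any 1 array. The rest of the 20 largest falls were Gm5532, Polq (a DNA repair polymerase), Kcnv2, Rap1gap2 (an inactivator of the small GTPase Rap1), Sh2d4a, Tmod4, 2310020H05Rik, Plbd1, Efnb3 (ephrin B3), Ccn1, Nt5dc3, Best3 (a bestrophin) and Esrra itself, with changes of -1.81 to -1.19. Of these, Ccn1, a matricellular protein, lost its call without WT replicate 1, 2 or 3 or ERRα KO replicate 2 or 3 (adjusted p up to 0.091, limma).

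**Figure D2:**
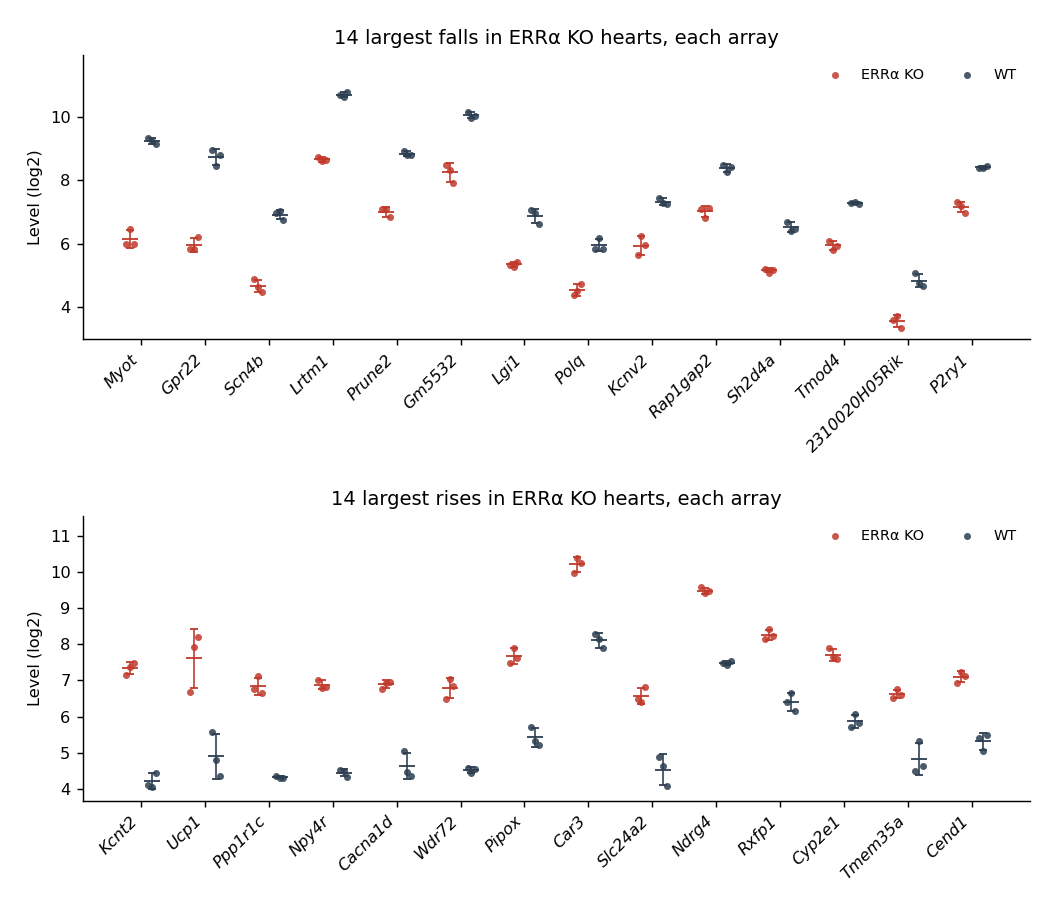
Level (log2) on each ERRα KO array (red, left) and each WT array (dark blue, right) for the 14 largest falls and the 14 largest rises, where points are arrays, dashes are group means and bars are 1 SD (n = 3). The groups of each gene are apart, and Ucp1 has the widest spread in ERRα KO hearts.

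In the list of sarcomere and Z-disc genes, 8 of 63 measured members fell and 2 rose (15.9% called, against 2.35% of all genes), and the median change was -0.08. Tmod4, a tropomodulin that caps thin filaments, had 6.09, 5.81 and 5.94 in ERRα KO hearts, against 7.27, 7.33 and 7.24 in WT hearts (a change of -1.33). Trim54, a muscle RING finger protein of the Z-disc and microtubules, had 8.17, 7.90 and 7.96 in ERRα KO hearts, against 9.01, 9.0 and 8.96 in WT hearts (a change of -0.98). Synpo2, an actin-binding Z-disc protein, had 8.26, 8.50 and 8.20 in ERRα KO hearts and 9.06, 9.01 and 8.92 in WT hearts (a change of -0.67). These 3 and Myot were the 4 members that stayed called without any 1 array, and between 4 and 7 were called in each such fit. Of 32 genes of the intercalated disc, which joins heart muscle cells, Gjc1 rose by 0.54 and Nrap fell by 0.43. Gjc1 lost its call without each array other than ERRα KO replicate 3 (adjusted p up to 0.12) and Nrap without each of the 6 (up to 0.17). The cardiomyocyte markers, a list of 20 genes that define heart muscle cells, had a median change of -0.09 with 1 called (Myl3, lower), and their summed brightness was 89155 to 92629 in ERRα KO hearts, against 94465 to 97240 in WT hearts. Myl3 lost its call whichever array was left out (adjusted p = 0.053 to 0.12, limma).

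The largest rises included several channels and receptors. Ppp1r1c (chr2:79707780-79818546), an inhibitory subunit of protein phosphatase 1, had 6.77, 7.12 and 6.65 in ERRα KO hearts, against 4.36, 4.31 and 4.31 in WT hearts. It rose by 2.52 (standard error 0.23, adjusted p = 0.00015, limma) with no overlap. Npy4r (chr14:34145646-34152419), a neuropeptide Y family receptor for pancreatic polypeptide, had 7.02, 6.79 and 6.83 in ERRα KO hearts, against 4.54, 4.50 and 4.33 in WT hearts. It rose by 2.42 (standard error 0.10, adjusted p = 3.6e-07, limma), which together with Kcnt2, described further on, is the smallest adjusted p of the comparison. Cacna1d (chr14:30039941-30491156), the pore of an L-type calcium channel known from pacemaker cells, had 6.77, 6.93 and 6.97 in ERRα KO hearts, against 5.04, 4.47 and 4.37 in WT hearts, and rose by 2.27 (adjusted p = 2.9e-05, limma).

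Ndrg4, a gene known for its part in heart growth in zebrafish, had 9.57, 9.41 and 9.46 in ERRα KO hearts, against 7.48, 7.42 and 7.55 in WT hearts (a rise of 2.00). Rxfp1, the receptor of relaxin, had 8.14, 8.42 and 8.23 in ERRα KO hearts and 6.42, 6.65 and 6.16 in WT hearts (a rise of 1.85). Ptgfr, a prostaglandin receptor, had 8.73, 8.75 and 8.62 in ERRα KO hearts and 6.79, 7.06 and 7.16 in WT hearts (a rise of 1.70). In all 3 genes the lowest ERRα KO array was above the highest WT array by more than the range within either group. Slc24a2, an exchanger of sodium for calcium and potassium, had 6.48, 6.42 and 6.81 in ERRα KO hearts and 4.89, 4.65 and 4.08 in WT hearts (a rise of 2.03). Pipox, a peroxisomal oxidase of pipecolate and sarcosine, had 7.47, 7.91 and 7.62 in ERRα KO hearts, against 5.73, 5.32 and 5.22 in WT hearts (a rise of 2.24). Both stayed called without any 1 array. Of the others among the 20, Wdr72 (2.27), Tmem35a (1.80; an assembly factor of acetylcholine receptors), Cend1 (1.78), Car2 (1.51; a carbonic anhydrase), Kcnh6 (1.5; a potassium channel outside the list of those), Acta2, Nmrk2 and Cabcoco1 (1.46) stayed called as well. Ucp1, Car3 and Cyp2e1 did not, and they are described with the fat cell markers.

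Seen over whole families, channels and receptors changed in both directions. Of 34 measured sodium, calcium and pacemaker channel genes, 3 rose and 2 fell (14.7% called). Beside Scn4b, Cacna1d and Slc24a2, Hcn2, a pacemaker channel opened by hyperpolarization, had 8.86, 8.78 and 8.83 in ERRα KO hearts, against 7.42, 7.69 and 7.44 in WT hearts. It rose by 1.31 (adjusted p = 4.8e-05, limma), and these 4 genes stayed called without any 1 array. The fifth, Clcn1, a chloride channel known from skeletal muscle, fell by 0.62 and lost its call without WT replicate 1 or 2 or ERRα KO replicate 1 (adjusted p up to 0.084). Of 46 potassium channel genes, 3 rose and 3 fell (13%). Kcnv2, a silent subunit that joins other potassium channels, had 5.64, 6.23 and 5.95 in ERRα KO hearts, against 7.44, 7.27 and 7.25 in WT hearts (a change of -1.38). Kcnv2 and Kcnt2 were the members that stayed called whichever array was left out. Of 36 genes of calcium handling by the sarcoplasmic reticulum, Ppp1r1c rose and Hrc fell. Hrc, a calcium-binding protein of its lumen, had 9.94, 9.93 and 9.84 in ERRα KO hearts, against 10.76, 10.69 and 10.83 in WT hearts (a change of -0.86, adjusted p = 0.0036, limma), and the median of the list was -0.09.

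Among 50 measured receptors and cyclic AMP genes, 6 rose and 5 fell (22% called, median -0.01). Beside Npy4r and Gpr22, Agtr1a, the main angiotensin II receptor, had 7.36, 7.26 and 6.98 in ERRα KO hearts, against 8.28, 8.24 and 8.28 in WT hearts (a change of -1.07). Pkia, an inhibitor of protein kinase A, had 8.06, 8.20 and 8.17 in ERRα KO hearts, against 9.0, 8.80 and 8.97 in WT hearts (a change of -0.78). Npy1r, another neuropeptide Y receptor, had 6.05, 6.32 and 5.99 in ERRα KO hearts and 5.41, 5.26 and 5.42 in WT hearts (a rise of 0.76). Npy1r was named for being the fifth member that stayed called without any 1 array. In each of the 3 genes the groups did not overlap. Between 6 and 8 members were called when 1 array was left out.

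The called genes of fatty acid breakdown all fell, each by less than 1 on the log2 scale. In the list of mitochondrial beta-oxidation, 5 of 25 members fell and none rose (20% called). The share was 2.35% of all genes and 5.50% in the highest bin of mean level. A negative difference was seen in 20 of 25, and the median was -0.25. In limma 17 of the 25 had an unadjusted p under 0.05, against 2817 of all 22180 genes. Acad11, an acyl-CoA dehydrogenase, had 9.16, 9.02 and 9.02 in ERRα KO hearts, against 9.77, 9.61 and 9.81 in WT hearts (a change of -0.66, adjusted p = 0.0049, limma), and was the only member called without each array in turn. Hadha, the alpha subunit of the mitochondrial trifunctional protein, had 12.18, 12.32 and 12.21 in ERRα KO hearts, against 12.59, 12.63 and 12.64 in WT hearts (a change of -0.39). Acaa2 (a change of -0.38), Acadvl (-0.42) and Slc25a20 (-0.64) were the other called members, a thiolase, the very-long-chain dehydrogenase and the carnitine carrier. Hadha and these 3 lost their call whichever array was left out (adjusted p between 0.053 and 0.18), while the median of the list stayed between -0.29 and -0.22. Acadm, a medium-chain dehydrogenase often used as an ERRα target and named here for that reason, had 12.23, 12.31 and 12.21 in ERRα KO hearts, against 12.54, 12.48 and 12.49 in WT hearts. Its difference of -0.25 was not called (adjusted p = 0.19, limma), although its arrays did not overlap.

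In the list of fatty acid uptake and activation, 3 of 31 members fell and 2 rose (16.1% called), and 25 had a negative difference. Dgat2, which makes triglyceride, had 8.83, 8.84 and 8.66 in ERRα KO hearts, against 9.86, 9.78 and 9.82 in WT hearts (a change of -1.04, adjusted p = 0.00066, limma). Plin5 and Abhd5, proteins of lipid droplets, fell (changes of -0.63 and -0.38), and the acyl-CoA synthetases Acsl6 and Acsl4 rose by 0.78 and 0.58. Dgat2 was the only one that stayed called without any 1 array. The call of Acsl6 was lost without WT replicate 1 or 2 (adjusted p up to 0.056), that of Acsl4 without WT replicate 1 or 3 or ERRα KO replicate 3 (up to 0.069), that of Plin5 without WT replicate 1, 2 or 3 or ERRα KO replicate 3 (up to 0.082), and that of Abhd5 whichever array was left out (up to 0.17).

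In the lists of the citric acid cycle, the respiratory chain, the mitochondrial ribosome and mitochondrial dynamics the called genes all fell. In the citric acid cycle list they were 2 of 39 members (5.13%), Pdpr and Ogdhl, with changes of -0.50 and -0.54. Among complex I subunits 1 of 40 was called (2.50%), Ndufv3 (-0.39). Among complexes II to V with cytochrome c 2 of 48 were called (4.17%), Atp5e and Sco1 (-0.43 and -0.37). The share was 2.35% of all genes and 5.50% in the highest bin of mean level. The citric acid cycle and respiratory chain lists were not above that bin. None of the members rose, and none of these 5 calls held in every fit with 1 array left out (0 to 1 called per list; adjusted p up to 0.086 for Atp5e and Ogdhl, 0.076 for Pdpr, 0.18 for Ndufv3 and 0.16 for Sco1). The medians were -0.03, -0.12 and -0.05, and 33 of the 40 complex I subunits had a negative difference. Cycs, cytochrome c, had 12.33, 12.51 and 12.58 in ERRα KO hearts, against 12.67, 12.51 and 12.61 in WT hearts, which overlap. In the mitochondrial ribosome 1 of 68 members fell (1.47%): Mrpl14, a protein of its large subunit, had 6.55, 6.45 and 6.47 in ERRα KO hearts and 7.17, 7.27 and 7.29 in WT hearts (a change of -0.75). It stayed called without any 1 array. In mitochondrial dynamics, Mfn1, a fusion GTPase, Mief2 and Mtfp1 fell, with changes of -0.46, -0.64 and -0.53, out of 36 members (8.33%, above the highest bin of mean level). Between 0 and 3 of them were called when 1 array was left out, Mfn1 losing its call without WT replicate 1 or 3 or ERRα KO replicate 1, Mief2 without each array other than ERRα KO replicate 2, and Mtfp1 without each of the 6 (adjusted p up to 0.15).

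In glycolysis the called members went both ways. Pfkp, the platelet form of phosphofructokinase, had 9.75, 9.53 and 9.62 in ERRα KO hearts, against 8.47, 8.42 and 8.39 in WT hearts, and rose by 1.2 (standard error 0.09, adjusted p = 3.4e-05, limma). Hk1, a hexokinase, had 9.34, 9.30 and 9.31 in ERRα KO hearts, against 8.52, 8.25 and 8.38 in WT hearts (a rise of 0.94). Slc2a1, the glucose transporter GLUT1, had 8.28, 8.31 and 8.16 in ERRα KO hearts and 7.29, 7.32 and 7.28 in WT hearts (a rise of 0.96). All 3 were apart by more than the spread within groups and stayed called without any 1 array. Hk2, the other muscle hexokinase, had 9.34, 9.36 and 9.32 in ERRα KO hearts, against 9.84, 9.72 and 9.83 in WT hearts, and fell by 0.46, a call lost only without WT replicate 1 (adjusted p = 0.052, limma). In all 4 of 41 members rose and 2 fell (14.6% called), and the median was 0.01.

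The list of creatine, adenylate and NAD genes had the highest share of called members of the 38 gene lists, 6 that rose and 3 that fell of 32 (28.1%). The 6 include Prodh and Aldh1l2, enzymes of proline and folate metabolism that the list holds beside the genes of its title. The lists were chosen with earlier results of these data known, so that ranks among them, here and below, are descriptions only. Nmrk2, a kinase that makes NAD from nicotinamide riboside, had 8.12, 7.82 and 7.85 in ERRα KO hearts, against 6.45, 6.40 and 6.48 in WT hearts (a rise of 1.49). Nnt, the mitochondrial transhydrogenase, had 10.93, 10.92 and 10.97 in ERRα KO hearts, against 11.53, 11.52 and 11.46 in WT hearts (a change of -0.56). Prodh, a proline dehydrogenase, had 7.49, 7.82 and 7.52 in ERRα KO hearts and 6.89, 6.88 and 6.78 in WT hearts (a rise of 0.76). Ckb, the brain form of creatine kinase, rose by 0.62. These 4 stayed called without any 1 array, out of 4 to 7 called in each such fit, but with the 4 arrays that stand apart left out 1 member, Nmrk2, was called. In the peroxisome list Pipox rose and 4 of 35 members fell (14.3%), 30 had a negative difference, and Pipox alone was kept without any 1 array.

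Among the ERR receptors and their coregulators, 1 of 32 rose and 1, Esrra, fell. Ppargc1a, the coactivator PGC-1α, had 11.05, 10.87 and 11.23 in ERRα KO hearts, against 10.47, 10.33 and 10.34 in WT hearts. It rose by 0.67 with no overlap (adjusted p = 0.033, limma), but lost its call without WT replicate 1, 2 or 3 or ERRα KO replicate 1 or 3 (adjusted p up to 0.14). Esrrg, which encodes ERRγ, had 7.74, 7.98 and 7.77 in ERRα KO hearts and 7.81, 7.67 and 7.81 in WT hearts, which overlap (difference 0.07, adjusted p = 0.83, limma). Esrrb, the third member of the family, had 5.65, 5.84 and 5.38 in ERRα KO hearts, against 6.09, 5.92 and 5.76 in WT hearts, which overlap too (-0.30, adjusted p = 0.46, limma).

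**Figure D3:**
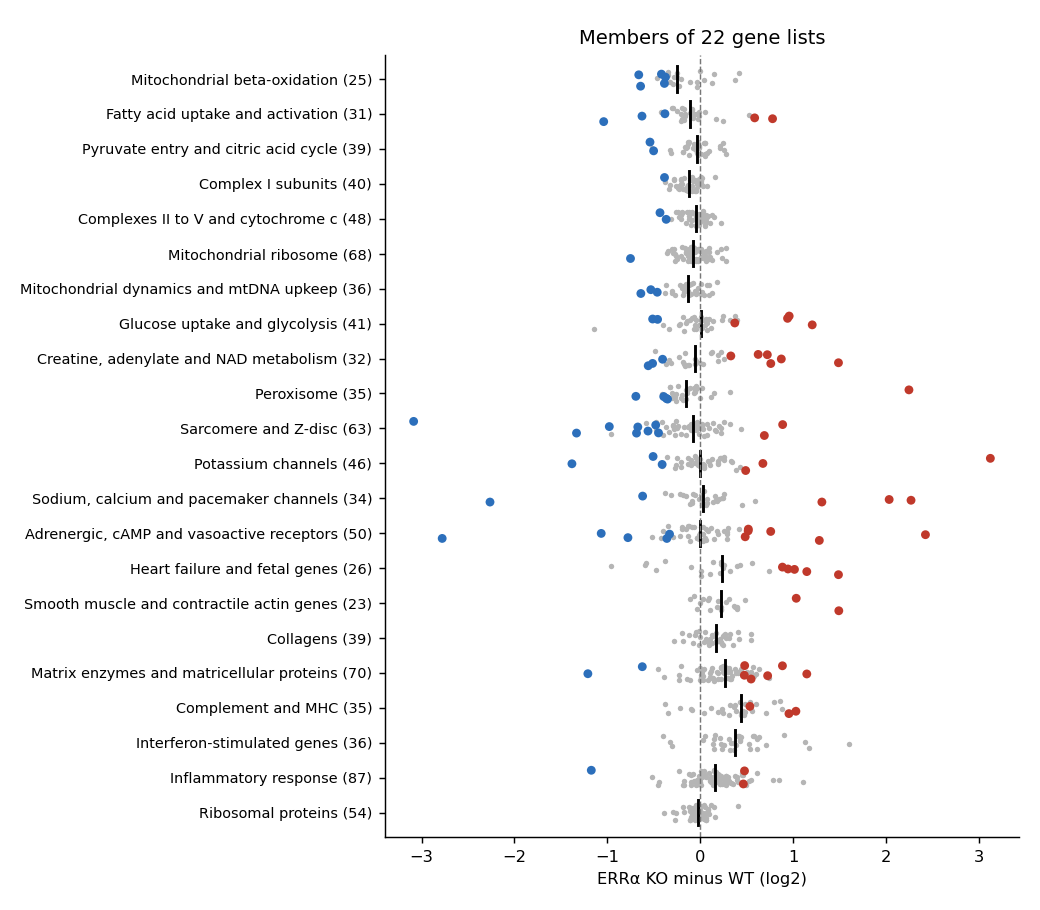
Difference between ERRα KO and WT hearts (log2) for each measured member of 22 gene lists, where red and blue points are members called higher and lower, grey points are all others, black bars are list medians, the dashed line is the median over all genes, and numbers in parentheses are measured members. Beta-oxidation lies to the left with a median of -0.25, complement and MHC to the right with 0.44, and channel, receptor and sarcomere lists have medians near 0 with single members far out on either side.

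Among genes of injury and tissue remodelling most calls were rises. In the list of heart failure and fetal genes, 5 of 26 members rose and none fell (19.2% called, median 0.23). Nppa, Nppb, Myh7, Acta1 and Ankrd1, which are on this list, were not called. Ccn2, a matricellular growth factor, had 9.01, 8.74 and 9.09 in ERRα KO hearts, against 8.11, 8.02 and 8.06 in WT hearts (a rise of 0.88). Thbs4, a thrombospondin, had 7.71, 7.21 and 7.56 in ERRα KO hearts and 6.65, 6.24 and 6.16 in WT hearts (a rise of 1.14). Serpina3n, an acute-phase protease inhibitor, had 9.77, 9.19 and 9.48 in ERRα KO hearts and 8.60, 8.55 and 8.47 in WT hearts (a rise of 0.94). These 3 and Nmrk2 stayed called without any 1 array, while Mt2, a metallothionein that rose by 1.01, lost its call without WT replicate 1 or 3 or ERRα KO replicate 1 (adjusted p up to 0.11). Of 70 matrix enzymes and matricellular proteins, 6 rose and 2 fell (11.4%), 59 had a positive difference and the median was 0.26. Between 2 and 6 of these were called with 1 array left out, and Ccn2 and Thbs4 were kept in each fit.

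Of 39 collagen genes none was called by limma, 4 had an unadjusted p under 0.05, 29 had a positive difference, and the median was 0.16. Of all 22180 genes 2817 had an unadjusted p under 0.05 in limma, the background for such counts here and in the lists below. Of 44 genes of the TGF-β pathway none was called either, with 3 at an unadjusted p under 0.05 and a median of 0.07. Of 23 smooth muscle and contractile actin genes, 2 rose and none fell (8.70%), and 19 had a positive difference. Acta2, the actin of smooth muscle, had 12.30, 12.30 and 12.31 in ERRα KO hearts, against 11.05, 10.48 and 10.90 in WT hearts. It rose by 1.49 (standard error 0.18, adjusted p = 0.00097, limma), and the 3 ERRα KO hearts were within 0.01 of each other. Myl9, a regulatory light chain of smooth muscle myosin, had 10.12, 10.58 and 10.58 in ERRα KO hearts and 9.61, 9.13 and 9.45 in WT hearts (a rise of 1.03). Both stayed called without any 1 array.

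In the immune lists most members had a positive difference. Of 35 complement and MHC genes 3 rose and none fell (8.57%, against 2.35% of all genes), 30 had a positive difference, and the median of 0.44 was the largest of the 38 gene lists. C7, a component of the complement attack complex, had 9.83, 9.81 and 9.27 in ERRα KO hearts, against 8.56, 8.83 and 8.66 in WT hearts (a rise of 0.95), and stayed called without any 1 array. Serping1 and C4b, an inhibitor and a component of the classical pathway, rose by 0.53 and 1.03. Serping1 lost its call without WT replicate 1, 2 or 3 or ERRα KO replicate 1 or 3 (adjusted p up to 0.068), and C4b without WT replicate 1 or 3 or ERRα KO replicate 1 or 3 (up to 0.082). Of 36 interferon-stimulated genes none was called by limma, 7 had an unadjusted p under 0.05, 33 had a positive difference and the median was 0.37. Without the 4 arrays that stand apart 10 complement and MHC genes and 12 interferon-stimulated genes were called, all higher, with medians of 0.62 in each list. Of 87 inflammatory genes, Slc7a2 and Il15ra rose and Il15 fell (3.45%). Slc7a2 and Il15ra lost their call whichever array was left out (adjusted p up to 0.18), and Il15, described above, stayed called.

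Levels of cell type markers are given beside these lists, and their part in the results was not tested. All 15 fibroblast markers had a positive difference (median 0.42), 1 of them called (Dpep1), and their summed brightness was 15214 to 17274 in ERRα KO hearts, against 12579 to 13013 in WT hearts. Dpep1 lost its call without WT replicate 1 or ERRα KO replicate 1 or 3 (adjusted p up to 0.074). Of 27 macrophage and monocyte markers 23 had a positive difference (median 0.37) and none was called, with 12 at an unadjusted p under 0.05. Their sum was 6348, 3953 and 4538 in ERRα KO hearts, against 3688, 3820 and 3572 in WT hearts, so that ERRα KO replicate 1 was well above the rest. Smooth muscle and pericyte markers summed to 12815 to 13471 in ERRα KO hearts and 9851 to 10682 in WT hearts, with a median change of 0.09 over 13 genes, of which Acta2 rose and Vtn fell. Without Acta2 these sums were 7780 to 8404 in ERRα KO hearts and 8196 to 8556 in WT hearts, and the mean log2 levels of the 13 genes were 8.46 to 8.55 in ERRα KO hearts and 8.28 to 8.52 in WT hearts, which overlap as well. Vtn lost its call without each array other than ERRα KO replicate 1 (adjusted p up to 0.15). The 23 endothelial markers had a median of -0.03, none called and 3 at an unadjusted p under 0.05, and sums of 13440 to 14035 in ERRα KO hearts, just below the 14051 to 14252 in WT hearts, with overlap once Kdr was left out (12413 to 12804 in ERRα KO hearts and 12571 to 12805 in WT hearts). Of 11 atrial markers, 19 lymphocyte markers, 13 neutrophil and mast cell markers and 10 mesothelial markers none was called by limma, with 5, 0, 2 and 2 at an unadjusted p under 0.05 and medians of 0.28, 0.03, 0.04 and -0.27. Of the atrial markers 9 had a positive difference. Their mean log2 levels did not overlap (8.92 to 9.05 in ERRα KO hearts and 8.56 to 8.84 in WT hearts). Their sums, 19436 to 20299 in ERRα KO hearts and 16520 to 19078 in WT hearts, overlapped once Nppa was left out (6911 to 8296 in ERRα KO hearts and 5549 to 7217 in WT hearts). With the ErbB2 knock-in their median was -0.11. Of 14 skeletal muscle markers, Myl1 and Tnni2, subunits of fast myosin and troponin, rose by 0.94 and 0.74. Myl1 stayed called without any 1 array, and Tnni2 lost its call whichever array was left out (adjusted p up to 0.12).

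Several of the largest rises were in genes abundant in fat. Ucp1 (chr8:83290348-83298456), the uncoupling protein of brown fat, had 6.69, 7.93 and 8.21 in ERRα KO hearts, against 5.58, 4.81 and 4.35 in WT hearts, and rose by 2.70 (standard error 0.57, adjusted p = 0.028, limma). Car3, a carbonic anhydrase of fat and muscle, had 9.98, 10.39 and 10.25 in ERRα KO hearts, against 8.29, 8.14 and 7.90 in WT hearts (a rise of 2.10). Cyp2e1, a cytochrome P450 of liver and fat, had 7.89, 7.65 and 7.58 in ERRα KO hearts and 5.72, 6.07 and 5.83 in WT hearts (a rise of 1.83). The groups were apart in each gene, yet Car3 and Cyp2e1 lost their call whichever array was left out (adjusted p up to 0.14), and Ucp1 without each array other than ERRα KO replicate 1 (up to 0.12). The 17 white adipocyte markers had a median of 0.63, the largest of all lists, with 14 positive differences and 1 call (Car3), and their mean log2 level was 7.69, 7.78 and 7.74 in ERRα KO hearts and 7.11, 7.18 and 7.12 in WT hearts. Their summed brightness was 11441 to 12180 in ERRα KO hearts and 10466 to 10664 in WT hearts. Without Car3 the sums overlapped, with 10095 to 10966 in ERRα KO hearts and 10152 to 10417 in WT hearts. With the ErbB2 knock-in the mean log2 level of these markers was 7.40, 7.18 and 7.59 in KI:KO hearts, against 8.25, 8.07 and 7.39 in ErbB2 KI hearts. There the groups overlap and the median difference was -0.48. Of 13 brown adipocyte markers Ucp1 and Ppargc1a rose and Cidea, a lipid droplet protein, fell, and the median was -0.06. Cidea lost its call whichever array was left out (adjusted p up to 0.12). The part of fat tissue in these values was not tested.

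The same loss of ERRα could be read in a second set of hearts, KI:KO against ErbB2 KI, on arrays with no part in the calls above other than the shared estimate of spread. There 867 genes were called (3.91% of those tested), 493 higher and 374 lower. Of the 253 genes that rose in ERRα KO hearts 231 had the same sign and 146 (57.7%) were called higher in KI:KO against ErbB2 KI hearts, where 2.22% of all genes were. Of the 268 that fell 258 had the same sign and 148 (55.2%) were called lower, where 1.69% of all genes were. Seen from the other side, these shared genes were 29.6% of the 493 and 39.6% of the 374. Across the 521 genes the changes had a correlation of 0.831, against 0.405 over all 22180 genes, as a description. The change with the knock-in was between 0.5 and 2 times that without it in 390 genes. The median ratio of these changes over the 521 genes was 0.77, and 134 genes had a ratio above 1. The genes were chosen by their change without the knock-in. With each comparison fitted on its own 6 arrays, 73 of the genes that rose and 61 of those that fell were called the same way in both. The 175 genes that stayed called without any 1 array included 150 (85.7%) called the same way in KI:KO against ErbB2 KI hearts, against 144 of the 346 others (41.6%). Both sets of calls use the shared estimate of spread, so the contrast of these shares is a description only. These 150 include Myot, Gpr22, Scn4b, Ppp1r1c, Npy4r, Cacna1d, Ndrg4, Hcn2, Pfkp and Acta2.

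**Figure D4:**
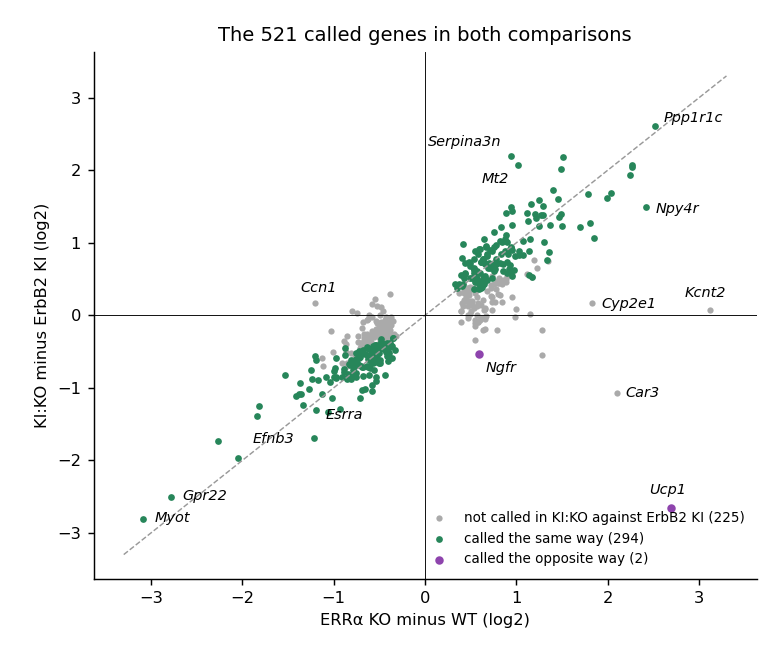
Change in KI:KO minus ErbB2 KI hearts (log2) against change in ERRα KO minus WT hearts (log2) for the 521 genes called in ERRα KO against WT hearts, with genes called the same way in both (146 higher, 148 lower), the 2 called the opposite way and the genes not called in KI:KO against ErbB2 KI hearts in green, purple and grey. The median ratio of the change with to that without the knock-in was 0.77, and 134 of the 521 genes had a ratio above 1. Kcnt2, Ucp1, Car3 and Cyp2e1 lie far from the dashed line of equal change.

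Myot had 6.11, 6.97 and 6.66 in KI:KO hearts, against 9.24, 9.51 and 9.40 in ErbB2 KI hearts, and Ppp1r1c had 6.28, 7.45 and 6.61 in KI:KO hearts, against 4.06, 4.14 and 4.30 in ErbB2 KI hearts. Their changes, -2.80 and 2.61, were close in size to those without the knock-in. Among called genes that changed at least 2-fold in ERRα KO hearts, the largest ratios of the change with to that without the knock-in were in Mt2 (2.05), Car2 (1.45), Efnb3 (1.38), Nmrk2 (1.36), B4galt5 (1.33) and Apod (1.27), and the difference of the changes was called in none of them (adjusted p = 0.43 to 0.90, limma). The smallest were in Ucp1 (-0.99), Car3 (-0.51), Prkar2b (-0.43), Nefl (-0.16), Ccn1 (-0.14) and Vsnl1 (0.01), where it was not called either (adjusted p = 0.11 to 0.36, limma). Apart from Car2, Efnb3 and Nmrk2, each of these 12 genes lost its call in ERRα KO hearts without at least 1 array, Vsnl1 without WT replicate 1 or 3 or ERRα KO replicate 3 (adjusted p up to 0.057), B4galt5 without WT replicate 1 or 3 or ERRα KO replicate 1 or 2 (up to 0.072), Prkar2b without each array other than WT replicate 3 (up to 0.16), Nefl without each other than ERRα KO replicate 1 (up to 0.11) and Apod without each (up to 0.15). Ucp1 and Ngfr, a neurotrophin receptor, were called in both comparisons in opposite directions. Ngfr had 5.32, 5.07 and 5.42 in ERRα KO hearts and 4.84, 4.73 and 4.47 in WT hearts, against 4.84, 4.76 and 4.86 in KI:KO hearts and 5.33, 5.46 and 5.27 in ErbB2 KI hearts. Both calls of Ngfr were lost when single arrays were left out, that in ERRα KO hearts without WT replicate 2 or 3 or ERRα KO replicate 1 or 3 and that in KI:KO hearts without each (adjusted p up to 0.11).

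The difference between the changes with and without the knock-in was called for 2 genes of 22180 (0.00902%), with 1565 at an unadjusted p under 0.05. Kcnt2 (chr1:140245657-140614045), a sodium-activated potassium channel, had 7.16, 7.36 and 7.49 in ERRα KO hearts, against 4.12, 4.06 and 4.46 in WT hearts. It rose by 3.12 (standard error 0.13, adjusted p = 3.6e-07, limma), the largest rise of the comparison. In hearts with the knock-in it had 7.29, 7.17 and 7.38 in KI:KO and 7.29, 7.32 and 7.02 in ErbB2 KI hearts, a difference of 0.07, so that all 9 mutant hearts lay above all 3 WT hearts. The difference between the changes was -3.05 (adjusted p = 4.55e-05, limma) and stayed called without any 1 of the 12 arrays. Ddit4, a stress-induced inhibitor of mTORC1, had 6.29, 6.64 and 6.24 in ERRα KO hearts, against 6.85, 6.86 and 6.93 in WT hearts, a difference of -0.49 that was not called (adjusted p = 0.11, limma). With the knock-in it had 7.56, 7.48 and 7.86 in KI:KO hearts and 6.76, 6.47 and 6.36 in ErbB2 KI hearts, a rise of 1.10. The difference between these changes (1.59, adjusted p = 0.0495, limma) lost its call without any one of 8 arrays (each WT array, replicates 1 and 3 of ERRα KO, replicates 1 and 2 of KI:KO and replicate 2 of ErbB2 KI; adjusted p up to 0.191). No other gene was called, with an adjusted p of 0.0679 in limma for Pvr, a cell adhesion protein, 0.11 for both Ucp1 and Ngfr, and 0.157 for Npy4r.

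**Figure D5:**
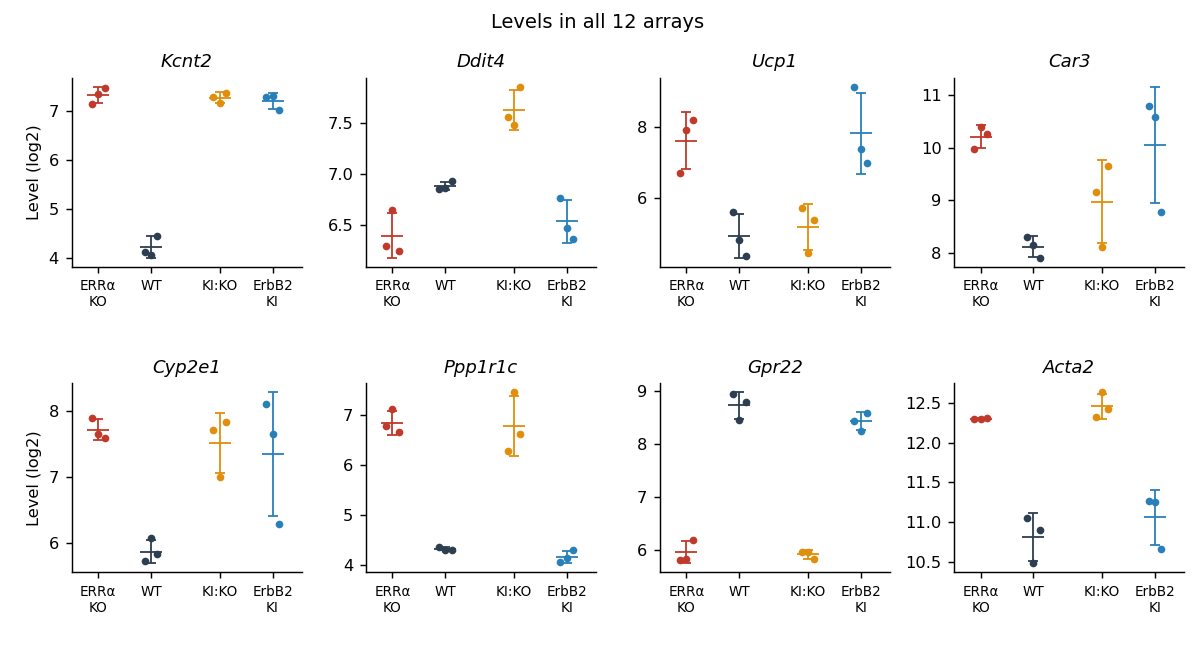
Level (log2) of 8 genes on all 12 arrays, where points are arrays, dashes are group means and bars are 1 SD (n = 3), with each group that lacks ERRα to the left of its counterpart. Ppp1r1c, Gpr22 and Acta2 differ alike in both pairs, Kcnt2 is low in WT hearts alone, and Ucp1 and Car3 turn direction between the pairs.

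Genes near Esrra were counted separately. Within 5 Mb of Esrra 11 of 277 other measured genes were called (3.97%, against 2.35% overall), 6 higher and 5 lower, and within 1 Mb 5 of 66 were (7.58%). Rcor2, a corepressor subunit at chr19:7267394-7275225, had 5.66, 5.55 and 5.50 in ERRα KO hearts, against 6.52, 6.39 and 6.45 in WT hearts (a change of -0.89). Slc29a2, a nucleoside transporter at chr19:5019057-5031972, had 7.58, 7.79 and 7.42 in ERRα KO hearts, against 6.27, 6.29 and 6.43 in WT hearts (a rise of 1.26). These 2 stayed called without any 1 array, and 5 of the 11 were called the same way in KI:KO against ErbB2 KI hearts. Trmt112, which overlaps Esrra by its annotated end (chr19:6909698-6911028), had 10.24, 10.08 and 10.06 in ERRα KO hearts and 9.67, 9.55 and 9.57 in WT hearts. It rose by 0.53, a call lost whichever array was left out (adjusted p up to 0.10). Chromosome 19 had the highest share of called genes of the numbered chromosomes, 27 of 726 (3.72%). Within 10 Mb of Kcnt2, 6 of 148 other genes were called (4.05%).

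Promoters were searched for the element that ERRα binds, in windows from 250 bases before to 50 after each transcript start (RefSeq, GRCm38.p6), of which 16990 of the tested genes had at least 1. The full element TNAAGGTCA, on either strand, was in the window of 1.18% of these genes, in that of none of 213 genes that fell and in that of 3 of 198 that rose (1.52%). Its core AAGGTCA, which any match of the longer element also holds, was in 4.67% of all, 14 of the 213 that fell (6.57%) and 10 of the 198 that rose (5.05%). The E-box CACGTG, searched for comparison, was in 9.19% of all, 10.8% of those that fell and 8.59% of those that rose. Called genes were mostly bright, and of the 10444 genes with a mean level above 4.67 the longer element was in the window of 0.795%, its core in 3.74% and the E-box in 11.5%, so that the E-box share of genes that fell lay above that of all genes and below that of these. A match is a run of letters and not a shown binding site, and elements outside these windows were not searched. The window of Esrra itself, shown because its gene is the one removed, holds no AAGGTCA on either strand (chr19:6921759-6922058, minus strand, all in lower case):
Esrra: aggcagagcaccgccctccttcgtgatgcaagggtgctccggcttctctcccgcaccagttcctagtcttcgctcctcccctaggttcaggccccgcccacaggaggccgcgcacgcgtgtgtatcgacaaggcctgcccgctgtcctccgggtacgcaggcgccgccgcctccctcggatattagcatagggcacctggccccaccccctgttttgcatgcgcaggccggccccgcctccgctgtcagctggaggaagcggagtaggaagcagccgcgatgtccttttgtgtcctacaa

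As none of the genes that fell had the longer element, the stretches around the core are shown for the 6 genes with the largest fall among those that hold it, each 5′ to 3′ on the strand of the gene with the core in capitals (AAGGTCA, or TGACCTT where it lies on the other strand). Gga2, an adaptor of vesicle transport, changed by -0.85 (chr7:122021306-122021364), Ankrd23, a muscle ankyrin repeat protein, by -0.69 (chr1:36536527-36536585), Fam160a1 by -0.61 (chr3:85746251-85746309), Pacsin2 by -0.60 (chr15:83432874-83432932), Isca1, an assembly factor of iron-sulfur clusters, by -0.55 (chr13:59769892-59769950) and Slc25a34 by -0.54 (chr4:141623921-141623979), all on the minus strand.
Gga2: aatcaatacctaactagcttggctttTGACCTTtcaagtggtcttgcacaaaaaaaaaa
Ankrd23: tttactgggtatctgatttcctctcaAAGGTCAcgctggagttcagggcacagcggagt
Fam160a1: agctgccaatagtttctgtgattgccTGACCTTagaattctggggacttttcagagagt
Pacsin2: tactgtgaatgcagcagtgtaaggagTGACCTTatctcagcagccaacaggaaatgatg
Isca1: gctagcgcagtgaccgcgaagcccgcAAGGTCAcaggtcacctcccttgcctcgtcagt
Slc25a34: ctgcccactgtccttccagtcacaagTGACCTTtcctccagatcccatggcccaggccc
Relative to the transcript start the first base shown in capitals is at -3 in Ankrd23 and between -140 and -56 in the others. Gga2, Pacsin2 and Isca1 stayed called without any 1 array. Ankrd23, Fam160a1 and Slc25a34 did not, the first without WT replicate 1 or 3 or ERRα KO replicate 2 or 3 (adjusted p up to 0.072), the second without each array other than ERRα KO replicate 2 (up to 0.11) and the third without each other than ERRα KO replicate 1 (up to 0.15).

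The 3 genes that held the longer element had risen, and their stretches are shown for contrast with the element in capitals (on the other strand in each). They are Hcn2 (chr10:79716440-79716500), Acsl6 (chr11:54303631-54303691) and Igf1r, a receptor of insulin-like growth factor that rose by 0.57 (chr7:67952145-67952205), all on the plus strand.
Hcn2: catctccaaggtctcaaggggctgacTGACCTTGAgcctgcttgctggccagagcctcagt
Acsl6: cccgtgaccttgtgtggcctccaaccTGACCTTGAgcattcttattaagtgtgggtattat
Igf1r: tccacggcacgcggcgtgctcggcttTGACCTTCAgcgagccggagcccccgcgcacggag
Hcn2 had the smallest adjusted p of the 3 and stayed called without any 1 array, while Igf1r lost its call whichever array was left out (adjusted p up to 0.18). The stretch of Acsl6 holds a further core, left in lower case.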

How the data were processed

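RNA from 12 hearts (3 each of ERRα KO, WT, KI:KO and ErbB2 KI) was hybridised to Affymetrix Mouse Gene 2.0 ST arrays. The deposited values are log2 signals that the authors normalized by RMA in Affymetrix Expression Console 1.4.1, 1 column per array, and they were used unchanged. Arrays carry no read depth, and 3 arrays a group limit the precision. Groups were taken from the genotype labels. Of 41345 probe sets, 1820 annotated to several genes and 16004 without a gene name were left out. Gene symbols came from the platform annotation, positions (GRCm38; 22139 genes) and promoters from RefSeq.

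The 4 group means were fitted together in limma 3.58.1 (R 4.3.3; 8 residual degrees of freedom), with ERRα KO minus WT as the comparison, KI:KO minus ErbB2 KI beside it, and the difference of both. All p-values are two-sided and adjusted by Benjamini-Hochberg over 22180 genes. Tables and plots were made in Python 3.11.15 with pandas 2.3.3 and Matplotlib 3.10.9. The fit was tested on simulated data.

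Members and the 38 gene and 14 marker lists were chosen with earlier results of these data known. Named genes are the 20 largest called rises and falls, up to 4 list members of smallest p, the targeted genes, the genes of smallest interaction p and of extreme ratios, and called genes near Esrra or with the motif; Acadm, Cycs, Esrrg, Esrrb, Npy1r, Clcn1 and other called list members were added after values had been seen. Alternatives were other fits (the methods' t-test, 2 groups, trend, array weights, replicate block), normalizations and centring, filters, probe set rules, leaving out each array and, chosen after seeing the data, a block for or removal of the 4 arrays that stand apart.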

Additional observations from a re-analysis of the deposited data

Results flagged for a closer look

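For 2 genes the change on loss of ERRα differed between hearts with and without the ErbB2 knock-in by a test of that difference. Kcnt2, a sodium-activated potassium channel, differed by -3.05 on the log2 scale, with a change of 0.07 in KI:KO against ErbB2 KI hearts and of 3.12 in ERRα KO against WT hearts (adjusted p = 4.55e-05 in limma, 4.45e-05 to 0.000508 when 1 of the 12 arrays was left out). Ddit4, an inhibitor of mTORC1, differed by 1.59, with a change of 1.10 in KI:KO against ErbB2 KI hearts and of -0.49 in ERRα KO against WT hearts (adjusted p = 0.0495 in limma, 0.0209 to 0.191 when 1 array was left out).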

How the results depend on the processing

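Against 253 higher and 268 lower genes, the methods' t-test called 49 and 61 after Benjamini-Hochberg adjustment and 867 and 894 at their unadjusted limits of p and 1.2-fold. A fit of the 2 groups alone called 167 and 149, a filter on dim genes 415 and 464, all probe sets 156 and 147, an intensity trend 410 and 498, array weights 413 and 458, and a 1.5-fold limit 172 and 128. Centring on the median gave 212 and 318. Leaving out 1 array gave 122 to 167 higher and 88 to 165 lower, the fewest without WT replicate 1. Without the 4 arrays that stand apart there were 144 and 99. For KI:KO against ErbB2 KI (493 and 374) the methods' t-test called 0 and 0 after adjustment and 1010 and 922 before it. The 2 groups alone gave 211 and 126, the dim filter 767 and 574, all probe sets 314 and 199, the trend 763 and 595, removal of the 4 arrays 291 and 171, and leaving out 1 array 237 to 519 and 164 to 320. Of the genes called the same way in both (294), these settings gave 0, 134, 490, 181, 530, 107 and 151 to 269. The difference of both changes (2 genes) was called for 6 with the dim filter, 5 with all probe sets, 18 with the trend, 4 with array weights, 1 each with quantile normalization, the replicate block and a block for the 4 arrays, 22 without them, and 1 to 22 with 1 array left out. The core AAGGTCA was in 6.57% of promoters of genes that fell, the longer element in 0. Esrrg, not called, had 0.07, with -0.00 without ERRα KO replicate 2, up to 0.11 without another array and -0.05 without the 4 arrays. The causes were not tested, apart from fewer or more genes or arrays in the fit.

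Same-numbered arrays deviated from their group means with correlations of -0.19 to 0.20 over all pairs of groups. Between ERRα KO and WT hearts these were 0.07, 0.20 and 0.07 for replicates 1, 2 and 3, and -0.13 to 0.10 for differently numbered arrays. Replicate 2 of both groups is among the 4 arrays that stand apart, so that these values cannot decide whether the numbers pair the hearts. The replicate block gave 191 higher and 171 lower genes in ERRα KO hearts, and 117 of the 166 called genes named or in a list stayed called. Of these 166, none changed sign under the other settings. Where arrays were only left out this was fixed in advance, as the groups do not overlap. Of the 166, those that stayed called were 38 with the methods' t-test after adjustment, 70 without the 4 arrays, 91 with all probe sets, 100 with the 2 groups alone, 160 with quantile normalization, 159 with centring, 161 with the mean of the probe sets and 162 with a block for the 4 arrays. With 3 arrays a group, changes of dim genes and small changes are the least certain.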

Other observations

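In the lists of stress, lipid and signalling genes single members were called in ERRα KO against WT hearts, where 2.35% of all genes were. Gars, a tRNA synthetase that charges glycine, had 9.82, 9.72 and 9.74 in ERRα KO hearts, against 9.12, 9.06 and 9.08 in WT hearts (a rise of 0.67, adjusted p = 0.00084, limma), and Gars and Asns were the called members, both higher, of 34 genes of the integrated stress response (5.88%). Pla2g5, a secreted phospholipase, had 8.35, 8.66 and 8.41 in ERRα KO hearts, against 7.53, 7.41 and 7.52 in WT hearts (a rise of 0.99) and was the 1 of 48 phospholipid, eicosanoid and cholesterol genes called (2.08%). Rorb, a nuclear receptor and 1 of 2 called among 20 clock genes, had 4.57, 4.59 and 4.69 in ERRα KO hearts, against 5.49, 5.55 and 5.17 in WT hearts (a change of -0.79). Fkbp4, a cochaperone of steroid receptors, had 8.98, 9.04 and 9.05 in ERRα KO hearts, against 9.85, 9.75 and 9.84 in WT hearts (a change of -0.79) and was 1 of 2 called among 32 heat shock and chaperone genes (6.25%). These 4 stayed called without any 1 array, and each was called in the same direction in KI:KO against ErbB2 KI hearts (changes of 0.81, 0.82, -0.76 and -0.83). Bhlhe40, a clock repressor, had 9.81, 9.68 and 9.64 in ERRα KO hearts, against 9.07, 9.10 and 8.95 in WT hearts (a rise of 0.67), a call lost whichever array was left out (adjusted p up to 0.11), and its change with the knock-in was -0.01.

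Of 78 growth factors and guidance cues 5 rose and 2 fell (8.97%), of which Efnb3 stayed called without any 1 array. Called members were 2 higher of 40 sphingolipid genes (5.0%), 2 higher of 24 glucocorticoid-responsive genes and metallothioneins (8.33%), 1 higher and 3 lower of 39 antioxidant genes (10.3%), 1 higher and 2 lower of 35 mitochondrial carriers (8.57%), 2 lower of 24 genes of branched-chain amino acid and ketone breakdown (8.33%), 1 lower of 27 genes of muscle protein breakdown (3.70%) and 1 higher of 11 nerve and glial markers (9.09%), none of them kept without each array in turn. Among 25 p53 targets, 54 ribosomal proteins and 2 erythroid markers limma called none, with 3, 2 and 0 at an unadjusted p under 0.05.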
